A study of Homo sapiens with 12 samples.

Results

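The 45 genes described here encode enzymes and regulators of 6 branches of amino acid metabolism: branched-chain degradation (12 genes), glutamate with aspartate, alanine and proline (8), arginine with the urea cycle and creatine (7), polyamines (6), methionine and sulfur (9), and glycine cleavage (3). They were taken by symbol from the 58735 genes of the count table, and all 45 had a row. RNA was sequenced from TAMs, which here were THP-1 cells, a monocytic leukaemia line, differentiated with PMA, a phorbol ester (100 ng/mL for 48 h). These TAMs were cocultured for 48 h in a Transwell system with AsPC-1 pancreatic cancer cells. The 4 groups of 3 libraries were control (labelled NC, AsPC-1 cells carrying the empty vector), OE-MMP28 (AsPC-1 cells overexpressing the matrix metalloproteinase MMP28), and anti-IL-8 and anti-VEGFA, which had OE-MMP28 cells plus a neutralizing antibody against IL-8 or VEGFA. No group is labelled as having received a control antibody. The labels do not say whether the libraries of a group came from separate cultures, so p-values measure only the spread between these libraries, which may be technical. The comparisons ask whether the TAM transcripts of these enzymes differed beside OE-MMP28 cells, and whether they differed again once a cytokine was neutralized.

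As background, amino acid branches share nitrogen and carbon through glutamate. Transaminases move the amino group of branched-chain amino acids, aspartate and alanine onto it, and a mitochondrial dehydrogenase complex then commits the branched-chain skeletons to oxidation. In macrophages arginine is a well known branch point, because arginase turns it into ornithine, the precursor of polyamines, and argininosuccinate synthase and lyase rebuild it from citrulline. The methionine cycle makes S-adenosylmethionine, which donates methyl groups and, once decarboxylated, the aminopropyl groups of spermidine and spermine.

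The libraries held 15852346 to 18701195 counts, so that 3 counts equal 0.160 to 0.189 CPM (the count as a share of the library total, scaled to equal totals). The 45 genes took 0.419% to 0.479% of the counts. Of 10 macrophage markers, 9 had at least 76 counts in every library, among them CD14 with 11260 to 28850, while CD68 had 0 to 5. Their summed level was 1908 to 2124 CPM in control, 2047 to 2979 in OE-MMP28, 2692 to 3219 in anti-IL-8 and 2432 to 2968 in anti-VEGFA. The control range thus lay below both antibody ranges and overlapped that of OE-MMP28. The part of this marker level in the differences from control below was not tested. The 10 epithelial markers, chosen for the cancer cells, together reached 3.52 to 6.49 CPM. Their ranges overlapped between all groups (5.27 to 6.32 in control, 3.52 to 5.38 in OE-MMP28, 4.35 to 6.49 in anti-IL-8, 5.02 to 6.15 in anti-VEGFA). MUC1 had 28 to 65 counts per library, S100P 4 to 42 and KRT7 4 to 22. CLDN4 and CDH1 had at most 10 counts, KRT8, KRT18 and KRT19 at most 7, and CEACAM6 at most 4. EPCAM was at 0 in all 12 libraries. Mitochondrial transcripts took 6.92% to 17.8% of counts, with anti-VEGFA replicate 2 highest. In such bulk RNA, fewer cells and less RNA per cell cannot be told apart.

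Promoters of these enzymes were searched for 2 motifs known from amino acid and nucleotide metabolism genes, on both strands, in RefSeq windows of GRCh38.p14 that run from 250 bases before to 50 after a start. The motifs were CACGTG, the E-box core that MYC and MITF family factors bind, and TGATGNAA, the core of the element that C/EBP and ATF4 bind together, and matches to the 2 did not overlap in any of the windows shown. A window was found for 39 of the 45 genes. CACGTG stood in 7 of them (17.9%), namely ADI1, ASS1, BCAT1, MCCC1, MCCC2, ODC1 and SRM, against 8.77% of all 27305 genes with a window. TGATGNAA stood in 2 (5.13%), BCAT1 and GOT1, against 4.46% of all genes. A gene was counted if any of its windows held the motif, and the sets compared were not alike. The 39 genes had 57 windows, and all 27305 genes had 35116. The median GC content was 66.3% in the windows of the 39 genes and 58.7% in all windows. The part of window number and GC content in these shares was not tested. The windows are shown for the 5 genes with a motif among the genes described library by library below: ASS1 (chr9:130444711-130445010, plus strand), the synthase of the arginine branch; BCAT1 (chr12:24949052-24949351, minus strand), the cytosolic branched-chain transaminase; GOT1 (chr10:99430575-99430874, minus strand), the cytosolic aspartate transaminase; ODC1 (chr2:10447963-10448262, minus strand), ornithine decarboxylase; and SRM (chr1:11059969-11060268, minus strand), spermidine synthase. Capitals mark the motifs, and each run is read 5′ to 3′ on the gene's strand.
ASS1: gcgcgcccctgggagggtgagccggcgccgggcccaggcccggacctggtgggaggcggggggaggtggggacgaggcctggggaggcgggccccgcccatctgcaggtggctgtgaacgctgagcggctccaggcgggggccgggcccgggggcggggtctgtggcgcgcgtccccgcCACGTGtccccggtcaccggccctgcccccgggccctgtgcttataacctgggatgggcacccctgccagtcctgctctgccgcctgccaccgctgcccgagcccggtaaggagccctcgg
BCAT1: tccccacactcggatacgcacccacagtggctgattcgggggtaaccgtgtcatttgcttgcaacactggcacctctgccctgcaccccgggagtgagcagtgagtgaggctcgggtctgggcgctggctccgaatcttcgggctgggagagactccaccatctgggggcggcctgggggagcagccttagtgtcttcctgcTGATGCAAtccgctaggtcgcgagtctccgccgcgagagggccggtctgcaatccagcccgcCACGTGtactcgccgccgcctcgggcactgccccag
GOT1: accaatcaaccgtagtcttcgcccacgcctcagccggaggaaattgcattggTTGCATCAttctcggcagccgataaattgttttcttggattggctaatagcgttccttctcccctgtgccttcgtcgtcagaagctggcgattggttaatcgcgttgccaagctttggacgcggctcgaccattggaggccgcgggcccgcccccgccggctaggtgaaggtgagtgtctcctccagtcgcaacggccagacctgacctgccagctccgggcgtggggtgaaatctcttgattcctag
ODC1: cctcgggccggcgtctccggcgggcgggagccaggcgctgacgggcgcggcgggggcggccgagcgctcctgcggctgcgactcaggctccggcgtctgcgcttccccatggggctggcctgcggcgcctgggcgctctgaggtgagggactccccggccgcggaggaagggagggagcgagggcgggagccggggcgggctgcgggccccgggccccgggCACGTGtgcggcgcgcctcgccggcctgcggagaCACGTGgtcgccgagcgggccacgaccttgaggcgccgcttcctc
SRM: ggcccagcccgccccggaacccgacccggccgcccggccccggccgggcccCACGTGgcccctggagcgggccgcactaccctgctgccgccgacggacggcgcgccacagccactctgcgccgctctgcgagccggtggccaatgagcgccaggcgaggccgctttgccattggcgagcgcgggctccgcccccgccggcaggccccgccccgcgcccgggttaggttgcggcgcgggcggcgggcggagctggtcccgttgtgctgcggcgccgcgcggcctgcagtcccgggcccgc
The 7 genes with CACGTG include ASS1 and SRM, called higher in the comparisons below, ODC1, called lower, and 4 genes that were called in none. A match is a description of these letters only, and no binding was measured.

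Levels were compared between genes per length, as the deposited FPKM, averaged over the 12 libraries. These are fragments scaled by gene length and by a divisor of 0.939 to 1.08 times the library's total. Polyamine genes were the most abundant branch and held 51.2% of the counts of all 45 genes. OAZ1, antizyme, which blocks ornithine decarboxylase, averaged 319 FPKM (248 to 387), and SAT1, the acetyltransferase that starts polyamine export and breakdown, averaged 280.4 (216 to 365). The other 4 polyamine genes followed at 52.7 (SMS, spermine synthase), 34.9 (AMD1, S-adenosylmethionine decarboxylase), 20.6 (SRM) and 19.1 (ODC1). Next in the order of all 45 stood ASS1 at 64.4 (33.0 to 90.0), GLUL, glutamine synthetase, at 63.2 (55.8 to 74.3), and MAT2A, the catalytic subunit of S-adenosylmethionine synthetase, at 52.8 (35.4 to 62.8). ASS1, GLUL, MAT2A and SMS overlapped in their ranges over libraries, so their order is not resolved.

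Isoenzyme pairs were unequal. BCAT1 averaged 27.5 FPKM (24.2 to 35.3) and its mitochondrial counterpart BCAT2 1.44 (0.873 to 1.91). Of the aspartate transaminases, the mitochondrial GOT2 was the higher one (11.9 against 4.04 for GOT1), and of the arginases only the mitochondrial ARG2 was clearly read (2.40, with 78 to 147 counts), although 37.4% of its exon length lies opposite exons of VTI1B and the strand setting of the counting is not given in the sources used here. The ranges of the 2 members did not overlap in any of these pairs. In the branched-chain pathway the kinase BCKDK, which switches the dehydrogenase complex off by phosphorylation, averaged 12.8, above the 2 measured core subunits DBT at 1.39 and BCKDHB at 0.588. The leucine enzymes lay between these, with MCCC2 at 8.84, IVD at 6.44 and MCCC1 at 3.66, the valine enzymes HIBADH and HIBCH at 5.30 and 1.44, and ACADSB of isoleucine degradation at 0.697.

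In the glutamate branch GLUD1, glutamate dehydrogenase, averaged 31.8 FPKM, with pseudogene GLUD1P3 and the paralog GLUD2 at 6.43% and 3.37% of its counts. Of its exon length 13.2% lies opposite exons of SHLD2, which had 209 to 487 counts. OAT, which links ornithine with proline and glutamate, averaged 8.32 FPKM. ALDH4A1, the second enzyme of proline breakdown, and GPT, an alanine transaminase, were at 0.341 and 0.204. ALDH4A1 shares 41.1% of its exon length on the same strand with AL080251.1, and reads there cannot be assigned to 1 of them. Creatine synthesis was read at both steps, GATM at 3.58 and GAMT at 7.30, as were ASL, argininosuccinate lyase, at 3.95 and CAD, which opens pyrimidine synthesis, at 3.54. The same limit holds for the 17.6% of the ASL exon length shared with AC068533.4. In the methionine branch MAT2B, the regulatory subunit beside MAT2A, averaged 19.8, AHCY, which clears S-adenosylhomocysteine, 13.9, MTRR, the reductase that keeps methionine synthase active, 11.8, and methionine synthase MTR itself 1.01. ADI1 of methionine salvage was at 7.43, CBS, the entry to transsulfuration, at 2.75 and CDO1, cysteine dioxygenase, at 1.36. Glycine cleavage was the scarcest branch: GCSH, its most abundant gene, averaged 0.258 with 1 to 33 counts, and its copy GCSHP5 had 67.5% as many, so that reads of the pair may be split between them. GLDC averaged 0.0969.

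Of the 45 genes, 5 were too scarce to test. BCKDHA, the alpha subunit of the branched-chain dehydrogenase, had 0 to 6 counts per library; 63.8% of its exon length is shared on the same strand with the read-through gene AC011462.1, and reads there cannot be assigned to 1 of them. AMT, a subunit of glycine cleavage, had 1 to 9 counts and shared 63.1% of its exons with AC104452.1. ARG1, the arginase often used to describe alternatively activated macrophages in mice, had 0 to 6 counts, and PRODH, which starts proline breakdown, had 0 to 3. MTAP, which salvages methionine from the by-product of polyamine synthesis, had 0 counts in all 12 libraries, which allows up to 0.160 to 0.189 CPM by counting error alone. Around MTAP (chr9:21802543-21937651, plus strand, GRCh38) a run of annotated genes was drawn outward for as long as no gene had more than 1 count in any library. With MTAP it held 46 genes, 19 of them protein-coding, over chr9:21106543-22121097, and 41 had 0 everywhere. The low counts in the run follow from how it was drawn. Each library had a count for only 22529 to 25769 of the 58735 genes. The run holds the interferon alpha genes, KLHL9 and CDKN2A, and is flanked by IFNB1 with 0 to 13 counts and CDKN2B with 0 to 5.

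Between OE-MMP28 and control TAMs, 1 of the 40 tested genes passed an adjusted p of 0.05 in edgeR's quasi-likelihood test: ASS1, which was higher in OE-MMP28. Across all 16046 genes tested, 3.16% passed (0.523% higher and 2.64% lower). At an unadjusted p of 0.05, 9 of the 40 passed, against 14.5% of all genes, with ASS1, BCAT1, GLUD1 and GOT2 higher (10.0% of the 40, against 5.93%) and AMD1, GLUL, HIBCH, ODC1 and SAT1 lower (12.5%, against 8.61%). The median log2 fold change of the 40 genes was -0.04, beside 0.02 for all genes. DESeq2 called 3 of them, ASS1, GOT2 and SAT1, and 4.14% of all genes, and in edgeR the counts without single libraries were 0 or 1.

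Adding an antibody moved no gene of the set past the adjusted threshold against OE-MMP28. With anti-IL-8, 0 of 40 passed in edgeR and 0.0% of all genes did; at the unadjusted threshold 10 passed, against 29.3% of all genes, with AHCY, GAMT, IVD and SRM higher and AMD1, BCAT1, DBT, GATM, HIBCH and MTRR lower. DESeq2 called 4 of these, AMD1, GATM, HIBCH and MTRR, where it called 18.2% of the 11690 genes to which it gave an adjusted p. The count rested on OE-MMP28 replicate 3: without it 12 of the 40 genes were called (AHCY, AMD1, ASS1, BCAT1, DBT, GAMT, GATM, HIBCH, IVD, MTRR, OAZ1 and SRM), and so were 25.0% of all genes. Without anti-VEGFA replicate 2, which is in neither group but shares the estimate of the spread, AMD1, HIBCH and MTRR were called, with 7.08% of all genes. With anti-VEGFA, 0 of 40 passed in edgeR and in DESeq2, against 0.343% of all genes in edgeR and 3.09% of those with an adjusted p in DESeq2. At the unadjusted threshold 7 passed, all lower (GATM, GOT2, MAT2B, MCCC1, MCCC2, MTRR and ODC1), or 17.5% of the 40 against 8.44% of all genes lower and 10.4% higher (18.8% in either direction). Without OE-MMP28 replicate 3, MAT2B and MTRR were called there, with 8.48% of all genes.

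With all libraries, more of the 40 genes were called in the antibody groups against control than against OE-MMP28. Such counts depend on the spread as well as on the size of the differences. Without OE-MMP28 replicate 3, anti-IL-8 had 12 of the 40 called against OE-MMP28 and 16 against control, with 25.0% and 25.2% of all genes. With anti-IL-8, 12 of the 40 genes were called (30.0%, against 20.7% of all genes), 5 of them higher (AHCY, ASS1, GOT1, GOT2 and SRM; 12.5% against 9.77%) and 7 lower (AMD1, GATM, HIBCH, MAT2B, MTR, MTRR and SAT1; 17.5% against 10.9%). With anti-VEGFA, 7 were called (17.5%, against 11.0% of all genes): ASS1 was higher, where 5.6% of all genes were, and AMD1, GATM, MAT2B, MTRR, ODC1 and SAT1 were lower, where 5.37% of all genes were. At the unadjusted threshold 18 passed with anti-IL-8, against 35.9% of all genes, and 13 with anti-VEGFA, against 27.0%. These comparisons and that of OE-MMP28 share the 3 control libraries, so the lists are not independent of each other. Between anti-VEGFA and anti-IL-8, edgeR and DESeq2 called 0 of the 40 (0.199% of all genes in edgeR and 1.59% of those with an adjusted p in DESeq2), and 9 passed unadjusted, with AMD1 and HIBCH higher and AHCY, ASS1, GOT1, GOT2, IVD, MAT2B and ODC1 lower in anti-VEGFA, against 15.0% of all genes. Without 1 library at a time, the counts against control ranged from 4 to 16 for anti-IL-8, with 7, 6 and 6 without control replicates 1, 2 and 3 and 4 and 5 without anti-IL-8 replicates 1 and 3. For anti-VEGFA they ranged from 2 to 9, with 2, 2 and 3 without control replicates 1, 2 and 3, 4 without anti-IL-8 replicate 1 or 3, and 4, 3 and 3 without anti-VEGFA replicates 1, 2 and 3. The share of all genes called against control moved too. Without OE-MMP28 replicate 3 it was 25.2% for anti-IL-8 and 14.9% for anti-VEGFA, and without anti-VEGFA replicate 2 it was 24.0% and 8.0%. For the other single libraries this share is not given here, so those counts do not set these genes apart from the rest.

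Counted by whether all libraries of one group lay above all of the other, 6 of the 40 genes were higher and 6 lower in OE-MMP28 than in control, 15.0% each, against 9.63% and 11.6% of all genes. With anti-IL-8 against OE-MMP28 6 were higher and 7 lower, where 13.7% and 15.3% of all genes were, and with anti-VEGFA against OE-MMP28 1 was higher (ARG2) and 9 were lower (GATM, GOT2, MAT2B, MCCC1, MCCC2, MTRR, OAT, ODC1 and SMS), where 9.11% and 8.97% were. Against control, 10 were higher and 10 lower with anti-IL-8 (25.0% each, against 23.4% and 24.4%), and 3 were higher and 13 lower with anti-VEGFA (7.5% and 32.5%, against 16.9% and 17.4%). Between the antibodies 3 were higher and 10 lower in anti-VEGFA, against 11.3% and 9.64% of all genes.

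**Figure D1:**
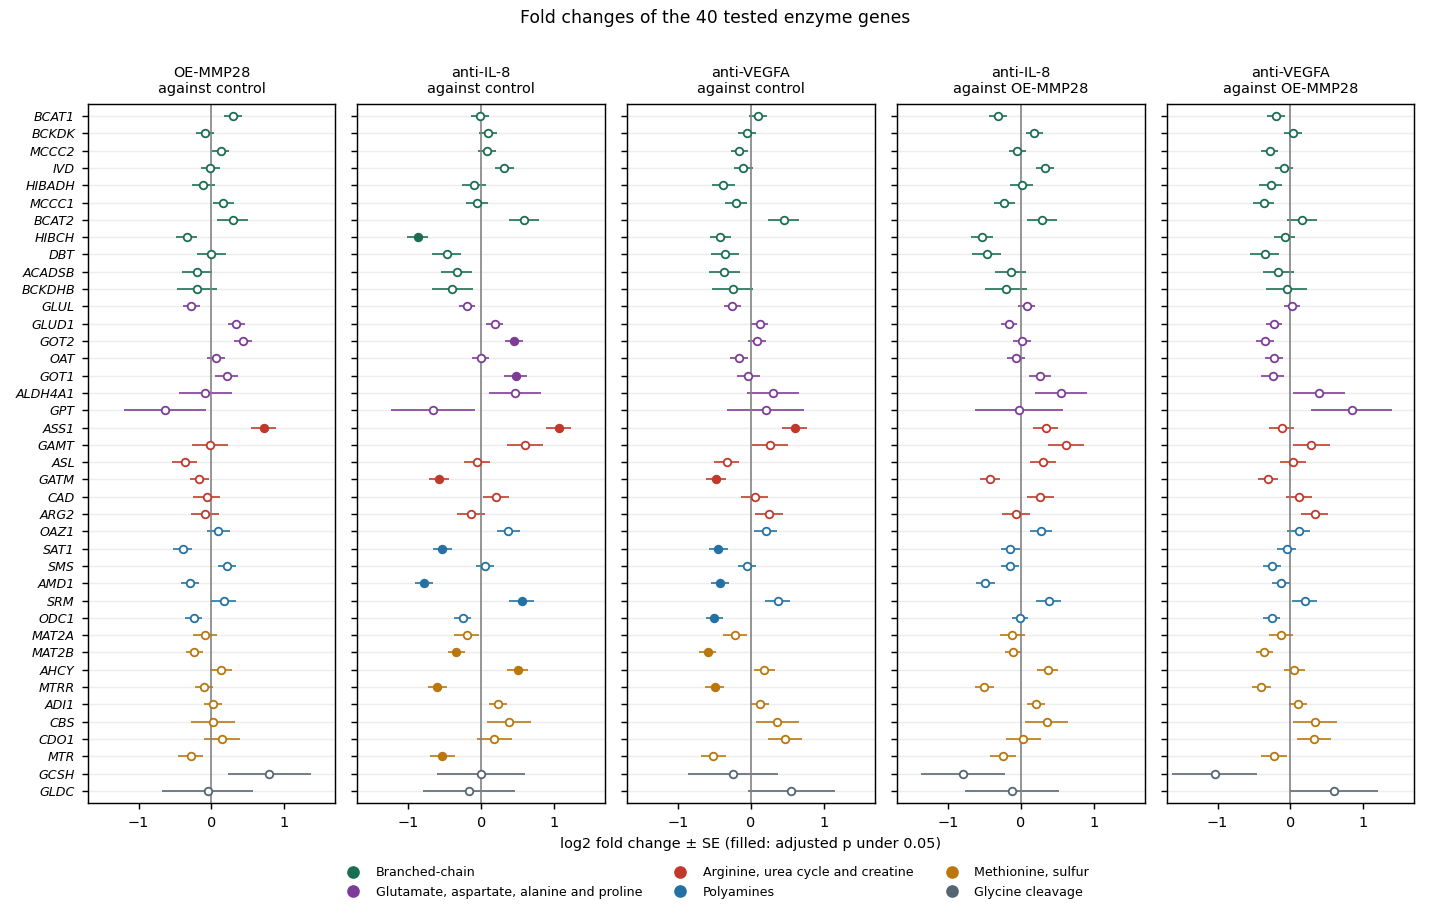
Log2 fold changes (horizontal axis) with their SE for the 40 tested genes in 5 comparisons, in rows ordered and coloured by branch; filled points passed an adjusted p of 0.05 in edgeR. Filled points stand in the panels against control (1, 12 and 7 genes) and in none of the panels against OE-MMP28, and the panels against control share the same control libraries.

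Of the 11 tested branched-chain genes, 1 was called, in anti-IL-8 against control, where 20.7% of all genes were. HIBCH (ENSG00000198130, chr2:190189735-190344193, minus strand, GRCh38), the hydrolase that frees 3-hydroxyisobutyrate in valine degradation, was at 14.3, 14.7 and 13.1 CPM in the control libraries, 11.4, 10.9 and 10.9 in OE-MMP28, 7.21, 8.24 and 7.53 in anti-IL-8 and 9.33, 11.1 and 11.0 in anti-VEGFA. Every control library lay above every OE-MMP28 library, and every anti-IL-8 library lay below the other 9. The gene was lower in anti-IL-8 than in control (log2 fold change -0.87 ± 0.14 (SE), adjusted p = 0.000686), a call kept without any single library. Against OE-MMP28 the anti-IL-8 value was log2 fold change -0.53 ± 0.15 (SE), adjusted p = 0.0627, and OE-MMP28 against control gave log2 fold change -0.34 ± 0.14 (SE), adjusted p = 0.257, both past the unadjusted threshold only. In anti-VEGFA the libraries lay within or just below the OE-MMP28 range, and the difference from control was log2 fold change -0.42 ± 0.14 (SE), adjusted p = 0.0633. HIBADH, the next enzyme of the pathway, was also lower in anti-VEGFA than in control at the unadjusted threshold (log2 fold change -0.38 ± 0.16 (SE), adjusted p = 0.131).

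BCAT1 (ENSG00000060982, chr12:24810022-24949459, minus strand), the most abundant gene of the branch, was at 293, 322 and 300.5 CPM in the control libraries, 362, 420.1 and 344 in OE-MMP28, 287, 325 and 295 in anti-IL-8 and 318, 348 and 314 in anti-VEGFA. All OE-MMP28 libraries lay above all control and all anti-IL-8 libraries, and overlapped those of anti-VEGFA. The differences passed the unadjusted threshold and not the adjusted one, at log2 fold change 0.30 ± 0.12 (SE), adjusted p = 0.24 for OE-MMP28 against control, and log2 fold change -0.31 ± 0.12 (SE), adjusted p = 0.103 for anti-IL-8 against OE-MMP28. The antisense transcript AC026310.2, with 628 to 1151 counts, overlaps 1.4% of the exon length of BCAT1. Against OE-MMP28 both carboxylase subunits were lower in anti-VEGFA at the unadjusted threshold, MCCC1 at log2 fold change -0.37 ± 0.15 (SE), adjusted p = 0.197 and MCCC2 at log2 fold change -0.28 ± 0.12 (SE), adjusted p = 0.21. IVD, which acts before them on leucine, was higher in anti-IL-8 than in OE-MMP28 (log2 fold change 0.33 ± 0.13 (SE), adjusted p = 0.103), and DBT, the transacylase core of the dehydrogenase, was lower (log2 fold change -0.47 ± 0.20 (SE), adjusted p = 0.129), also unadjusted only. BCAT2, BCKDHB, BCKDK and ACADSB had log2 differences from control between -0.40 and 0.59, of which the 0.59 ± 0.21 and 0.45 ± 0.21 of BCAT2 in anti-IL-8 and anti-VEGFA passed unadjusted. Over the branch the median log2 fold change of anti-VEGFA against OE-MMP28 was -0.17 with 2 of 11 genes above 0, beside a median of all genes near 0.

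The gene of this pathway that moved most was not among the 45. PPM1K (ENSG00000163644, chr4:88257620-88284769, minus strand), the mitochondrial phosphatase that switches the branched-chain dehydrogenase on and so opposes BCKDK, comes from a list of 61 other enzymes of the same pathways, and it and BCKDK were chosen for values per library after their values were seen. It was at 37.5, 47.5 and 40.5 CPM in the control libraries, 11.8, 11.9 and 8.99 in OE-MMP28, 6.56, 10.8 and 7.20 in anti-IL-8 and 13.5, 11.0 and 9.60 in anti-VEGFA. All 9 libraries beside OE-MMP28 cells, with or without an antibody, lay below all control libraries. The call held in each comparison with control: log2 fold change -1.94 ± 0.19 (SE), adjusted p = 1.74e-06 for OE-MMP28, log2 fold change -2.35 ± 0.19 (SE), adjusted p = 1.68e-07 for anti-IL-8 and log2 fold change -1.88 ± 0.19 (SE), adjusted p = 2.56e-06 for anti-VEGFA, and none was lost without any single library. Against OE-MMP28, the differences were -0.41 ± 0.20 with anti-IL-8 added and 0.06 ± 0.19 with anti-VEGFA, neither called. BCKDK, its opponent, was at 52.7, 50.9 and 48.3 CPM in the control libraries, 47.5, 43.5 and 51.6 in OE-MMP28, 48.8, 53.4 and 59.9 in anti-IL-8 and 48.1, 49.7 and 48.2 in anti-VEGFA. Its libraries overlapped between all groups, and its log2 difference from control was -0.09 ± 0.12 in OE-MMP28.

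**Figure D2:**
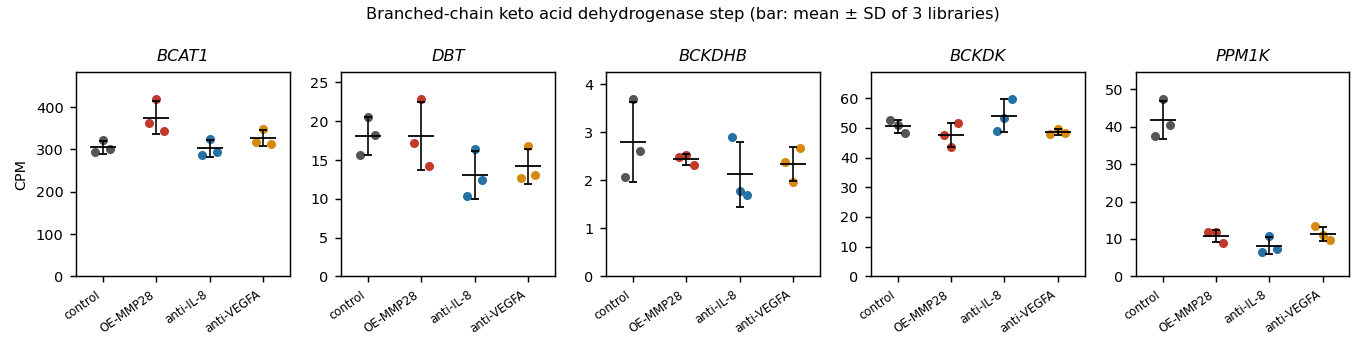
CPM of each library (points, linear axis from 0) with the mean ± SD of 3 libraries for BCAT1, the core subunits DBT and BCKDHB, the kinase BCKDK and the phosphatase PPM1K. PPM1K lies at 37.5 to 47.5 in control and at 6.56 to 13.5 in the other 9 libraries, while the BCKDK libraries of all groups lie between 43.5 and 59.9.

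In the glutamate branch both aspartate transaminases were called in anti-IL-8 against control. GOT2 (ENSG00000125166, chr16:58707131-58734357, minus strand), the mitochondrial partner of the malate-aspartate shuttle, was at 39.3, 36.2 and 38.4 CPM in the control libraries, 47.1, 53.7 and 52.8 in OE-MMP28, 57.2, 46.9 and 51.1 in anti-IL-8 and 41.3, 43.0 and 36.5 in anti-VEGFA. Its OE-MMP28 and anti-IL-8 libraries lay above all control libraries, and its anti-VEGFA libraries lay below all of OE-MMP28. Anti-IL-8 against control gave log2 fold change 0.45 ± 0.12 (SE), adjusted p = 0.0188, a call lost without control replicates 2 or 3 or anti-IL-8 replicates 1 or 3, 1 at a time (adjusted p = 0.0552 to 0.0841). The difference of OE-MMP28 from control was of the same size and missed the adjusted threshold (log2 fold change 0.43 ± 0.12 (SE), adjusted p = 0.0687), and anti-VEGFA against OE-MMP28 was log2 fold change -0.35 ± 0.12 (SE), adjusted p = 0.16.

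GOT1 (ENSG00000120053, chr10:99396870-99431569, minus strand), its cytosolic counterpart, was at 13.4, 12.0 and 11.1 CPM in the control libraries, 13.3, 14.1 and 14.8 in OE-MMP28, 17.9, 15.7 and 17.0 in anti-IL-8 and 12.7, 13.6 and 9.39 in anti-VEGFA. The 3 anti-IL-8 libraries lay above the other 9. Against control the value was log2 fold change 0.47 ± 0.15 (SE), adjusted p = 0.0391, a call lost without control replicates 1, 2 or 3, OE-MMP28 replicate 1 or anti-IL-8 replicates 1 or 3, 1 at a time (adjusted p = 0.0524 to 0.146). Of its exon length 19.3% lies opposite the transcript AL391684.1, which had 2 to 12 counts. GLUL (ENSG00000135821, chr1:182381704-182392206, minus strand), the most abundant gene of the branch, was at 677, 659.7 and 619.9 CPM in the control libraries, 554, 525 and 536 in OE-MMP28, 592, 548 and 569 in anti-IL-8 and 567, 508 and 564 in anti-VEGFA. Every control library lay above the other 9, with log2 fold change -0.28 ± 0.11 (SE), adjusted p = 0.256 in OE-MMP28, log2 fold change -0.20 ± 0.11 (SE), adjusted p = 0.229 in anti-IL-8 and log2 fold change -0.26 ± 0.11 (SE), adjusted p = 0.158 in anti-VEGFA, so none of the differences was called. GLUD1, which turns glutamate into 2-oxoglutarate, was read at 99.4 to 101 CPM in control and at 120.0 to 139.9 in OE-MMP28 (log2 fold change 0.34 ± 0.11 (SE), adjusted p = 0.139). OAT, ALDH4A1 and GPT passed neither threshold in any comparison.

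ASS1 (ENSG00000130707, chr9:130444929-130501274, plus strand), which joins citrulline and aspartate in the step that limits arginine resynthesis, was the 1 gene of the 45 called in all 3 comparisons with control. It was at 141, 137 and 103 CPM in the control libraries, 202, 161 and 264 in OE-MMP28, 276, 256 and 262 in anti-IL-8 and 180.3, 231 and 167 in anti-VEGFA. All 9 libraries beside OE-MMP28 cells lay above all control libraries, and OE-MMP28 replicate 3 lay within the anti-IL-8 range. The differences from control were log2 fold change 0.72 ± 0.17 (SE), adjusted p = 0.0262 in OE-MMP28, log2 fold change 1.06 ± 0.17 (SE), adjusted p = 0.000642 in anti-IL-8 and log2 fold change 0.60 ± 0.17 (SE), adjusted p = 0.0334 in anti-VEGFA. In OE-MMP28 the call was lost without control replicates 1, 2 or 3 or OE-MMP28 replicates 1 or 3, 1 at a time (adjusted p = 0.0543 to 0.156). In anti-VEGFA it was lost without control replicates 1, 2 or 3 or anti-VEGFA replicate 2, 1 at a time (adjusted p = 0.0609 to 0.16), and in anti-IL-8 it was kept without any single library. Neither antibody group differed from OE-MMP28 past a threshold (log2 fold change 0.34 ± 0.17 (SE), adjusted p = 0.19 for anti-IL-8, and log2 fold change -0.12 ± 0.17 (SE), adjusted p = 0.742 for anti-VEGFA). ASS1P12, the pseudogene with most reads, had 0.37% of its counts.

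ASL, the next enzyme, which releases arginine, did not share this pattern: its log2 differences from control were -0.37 ± 0.18, -0.06 ± 0.17 and -0.33 ± 0.18 in OE-MMP28, anti-IL-8 and anti-VEGFA, and none passed a threshold. GATM (ENSG00000171766, chr15:45361124-45402327, minus strand), which makes guanidinoacetate from arginine and glycine on the way to creatine, was at 33.5, 28.3 and 26.4 CPM in the control libraries, 26.2, 29.2 and 23.2 in OE-MMP28, 18.4, 21.2 and 19.1 in anti-IL-8 and 19.9, 22.0 and 21.4 in anti-VEGFA. The libraries of both antibody groups lay below all of control and all of OE-MMP28. Against control the values were log2 fold change -0.59 ± 0.14 (SE), adjusted p = 0.0084 in anti-IL-8 and log2 fold change -0.48 ± 0.14 (SE), adjusted p = 0.0323 in anti-VEGFA. The first call was lost without control replicate 1 or anti-IL-8 replicate 1, 1 at a time (adjusted p = 0.0512 to 0.0623) and the second without control replicates 1 or 2, anti-IL-8 replicates 1 or 3 or anti-VEGFA replicates 1, 2 or 3, 1 at a time (adjusted p = 0.0521 to 0.161). GAMT, which finishes creatine, had higher values in anti-IL-8 than in OE-MMP28 at the unadjusted threshold (log2 fold change 0.62 ± 0.25 (SE), adjusted p = 0.114), where GATM was at -0.42 ± 0.14, so the 2 steps lay on opposite sides of 0. ARG2 and CAD passed neither threshold in any comparison.

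In the polyamine branch 3 of 6 genes were called in anti-IL-8 against control (AMD1 and SAT1 lower, SRM higher), where 20.7% of all genes were, and 3 of 6 in anti-VEGFA against control (AMD1, ODC1 and SAT1, all lower), where 11.0% were. Both comparisons use the same control libraries. SAT1 (ENSG00000130066, chrX:23783173-23786226, plus strand) was at 856, 922 and 894 CPM in the control libraries, 667, 623 and 739.7 in OE-MMP28, 616, 651 and 574 in anti-IL-8 and 549, 719 and 687 in anti-VEGFA. Every control library lay above the other 9. The differences from control were log2 fold change -0.40 ± 0.13 (SE), adjusted p = 0.133 in OE-MMP28, log2 fold change -0.54 ± 0.13 (SE), adjusted p = 0.0104 in anti-IL-8 and log2 fold change -0.45 ± 0.13 (SE), adjusted p = 0.035 in anti-VEGFA. The anti-IL-8 call was lost without control replicate 2 or anti-IL-8 replicates 1 or 3, 1 at a time (adjusted p = 0.051 to 0.0677), and the anti-VEGFA call without control replicates 1, 2 or 3, OE-MMP28 replicate 1, anti-IL-8 replicates 1 or 3 or anti-VEGFA replicates 1 or 3, 1 at a time (adjusted p = 0.0537 to 0.132).

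AMD1 (ENSG00000123505, chr6:110874770-110895713, plus strand), which supplies the aminopropyl donor, was at 325, 314 and 308 CPM in the control libraries, 262, 292 and 216 in OE-MMP28, 169.8, 196 and 185 in anti-IL-8 and 228, 239 and 240.1 in anti-VEGFA. Its control libraries were the highest of all, and its anti-IL-8 libraries lay below the other 9. Anti-IL-8 against control gave log2 fold change -0.78 ± 0.13 (SE), adjusted p = 0.000512, kept without any single library, and anti-VEGFA against control gave log2 fold change -0.42 ± 0.12 (SE), adjusted p = 0.0373, lost without control replicates 1, 2 or 3, OE-MMP28 replicate 1, anti-IL-8 replicates 1 or 3 or anti-VEGFA replicates 1, 2 or 3, 1 at a time (adjusted p = 0.0566 to 0.123). OE-MMP28 against control was log2 fold change -0.30 ± 0.12 (SE), adjusted p = 0.268, and anti-IL-8 against OE-MMP28 log2 fold change -0.48 ± 0.12 (SE), adjusted p = 0.0627, both past the unadjusted threshold only. ODC1 (ENSG00000115758, chr2:10439968-10448504, minus strand), the first enzyme of polyamine synthesis, was at 64.8, 71.6 and 66.6 CPM in the control libraries, 58.8, 55.6 and 57.1 in OE-MMP28, 62.0, 54.3 and 53.8 in anti-IL-8 and 49.0, 44.2 and 50.1 in anti-VEGFA. Again the control libraries lay above the other 9, and here the anti-VEGFA libraries lay below the rest. It was called lower in anti-VEGFA against control (log2 fold change -0.50 ± 0.11 (SE), adjusted p = 0.00978), and the call was lost without control replicate 2 (adjusted p = 0.0664). Its difference in OE-MMP28 was log2 fold change -0.24 ± 0.11 (SE), adjusted p = 0.335, and that of anti-VEGFA against OE-MMP28 log2 fold change -0.26 ± 0.11 (SE), adjusted p = 0.236.

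SRM (ENSG00000116649, chr1:11054584-11060024, minus strand), which uses the donor that AMD1 makes, lay on the other side. It was at 29.7, 32.7 and 34.6 CPM in the control libraries, 33.8, 30.8 and 44.7 in OE-MMP28, 48.4, 45.1 and 48.8 in anti-IL-8 and 34.3, 54.5 and 36.4 in anti-VEGFA. The anti-IL-8 libraries lay above all of control and OE-MMP28, and anti-VEGFA replicate 2 was the highest of the 12. Against control the anti-IL-8 value was log2 fold change 0.55 ± 0.17 (SE), adjusted p = 0.0311, a call lost without control replicates 1, 2 or 3 or anti-IL-8 replicates 1 or 3, 1 at a time (adjusted p = 0.069 to 0.105). OAZ1, the most abundant of the 45 genes, was at 1065, 946 and 937 CPM in the control libraries, 978, 862 and 1300.1 in OE-MMP28, 1330.5, 1235 and 1243 in anti-IL-8 and 997, 1341 and 1055 in anti-VEGFA. Its anti-IL-8 libraries lay above all of control (log2 fold change 0.37 ± 0.16 (SE), adjusted p = 0.101), a difference past the unadjusted threshold, and OE-MMP28 replicate 3 and anti-VEGFA replicate 2 stood at the anti-IL-8 level. SMS passed neither threshold in any comparison, although its OE-MMP28 libraries did not overlap those of control (log2 fold change 0.21 ± 0.12 (SE), adjusted p = 0.487).

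In the methionine branch MTRR, MTR and MAT2B were called lower and AHCY higher in anti-IL-8 against control. MTRR (ENSG00000124275, chr5:7851186-7906025, plus strand) was at 101, 88.6 and 93.3 CPM in the control libraries, 88.7, 101 and 73.9 in OE-MMP28, 62.7, 59.6 and 64.1 in anti-IL-8 and 70.7, 60.8 and 68.4 in anti-VEGFA. The libraries of both antibody groups lay below all of control and all of OE-MMP28. It was lower than in control at a log2 fold change of -0.60 ± 0.13 (SE), adjusted p = 0.00484 in anti-IL-8, kept without any single library, and log2 fold change -0.50 ± 0.13 (SE), adjusted p = 0.0184 in anti-VEGFA, lost without control replicates 1 or 3 or anti-VEGFA replicates 2 or 3, 1 at a time (adjusted p = 0.0501 to 0.0885). Against OE-MMP28 it gave log2 fold change -0.50 ± 0.13 (SE), adjusted p = 0.0627 with anti-IL-8 and log2 fold change -0.40 ± 0.13 (SE), adjusted p = 0.129 with anti-VEGFA, while OE-MMP28 against control was -0.10 ± 0.13. MTR (ENSG00000116984, chr1:236795281-236903981, plus strand), the synthase that MTRR reactivates, was at 13.4, 16.5 and 13.8 CPM in the control libraries, 12.6, 13.9 and 9.30 in OE-MMP28, 9.72, 12.0 and 8.37 in anti-IL-8 and 9.50, 10.2 and 10.9 in anti-VEGFA. Both antibody groups lay below all of control and within or below the wide OE-MMP28 range. The difference was called in anti-IL-8 (log2 fold change -0.53 ± 0.18 (SE), adjusted p = 0.0404) and not in anti-VEGFA (log2 fold change -0.51 ± 0.18 (SE), adjusted p = 0.0674), which does not show that the antibodies differ: anti-VEGFA against anti-IL-8 was 0.02 ± 0.18. The call was lost without control replicates 1, 2 or 3, OE-MMP28 replicate 1, anti-IL-8 replicates 1 or 3 or anti-VEGFA replicate 3, 1 at a time (adjusted p = 0.0542 to 0.188).

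MAT2B (ENSG00000038274, chr5:163503114-163519336, plus strand) was at 129.5, 128 and 117 CPM in the control libraries, 100.5, 118 and 99.1 in OE-MMP28, 101, 100.3 and 93.9 in anti-IL-8 and 82.2, 80.4 and 85.0 in anti-VEGFA. The anti-VEGFA libraries lay below the other 9, and the anti-IL-8 libraries below all of control. Anti-VEGFA against control gave log2 fold change -0.60 ± 0.11 (SE), adjusted p = 0.00299, kept without any single library. Anti-IL-8 against control gave log2 fold change -0.34 ± 0.11 (SE), adjusted p = 0.0415, lost without control replicates 1, 2 or 3, OE-MMP28 replicate 1, anti-IL-8 replicates 1, 2 or 3 or anti-VEGFA replicates 2 or 3, 1 at a time (adjusted p = 0.0578 to 0.165). Its catalytic partner MAT2A (ENSG00000168906, chr2:85539165-85545280, plus strand), with 12.4% of its exon length opposite exons of GGCX (356 to 506 counts), was at 262, 259 and 262 CPM in the control libraries, 255, 268 and 214 in OE-MMP28, 217, 206 and 259 in anti-IL-8 and 287, 159.9 and 227 in anti-VEGFA. The control libraries lay close together while anti-VEGFA spread widely, and MAT2A passed neither threshold in any comparison, with differences from control of -0.09 ± 0.17, -0.20 ± 0.17 and -0.22 ± 0.17 in OE-MMP28, anti-IL-8 and anti-VEGFA.

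AHCY (ENSG00000101444, chr20:34280268-34311802, minus strand) was at 52.2, 49.2 and 39.6 CPM in the control libraries, 53.4, 43.0 and 57.9 in OE-MMP28, 67.9, 60.0 and 71.5 in anti-IL-8 and 58.6, 54.5 and 47.0 in anti-VEGFA. The anti-IL-8 libraries lay above the other 9, with log2 fold change 0.50 ± 0.15 (SE), adjusted p = 0.0235 against control and log2 fold change 0.37 ± 0.14 (SE), adjusted p = 0.109 against OE-MMP28. The call against control was lost without control replicates 2 or 3 or anti-IL-8 replicates 1 or 3, 1 at a time (adjusted p = 0.0626 to 0.124). ADI1, CBS and CDO1 passed neither threshold in any comparison, and CBS spread from 8.65 to 26.9 CPM with overlap between all groups. In the glycine branch GCSH was at 0.649, 1.39 and 0.474 CPM in the control libraries, 1.37, 1.93 and 1.06 in OE-MMP28, 1.22, 0.830 and 0.454 in anti-IL-8 and 0.0594, 1.27 and 0.800 in anti-VEGFA, where anti-VEGFA replicate 1 held 1 count and the groups overlapped, and its differences from control had SE of 0.57 to 0.61, so a change of 1 on the log2 scale was not detectable at this depth. GLDC passed neither threshold either.

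**Figure D3:**
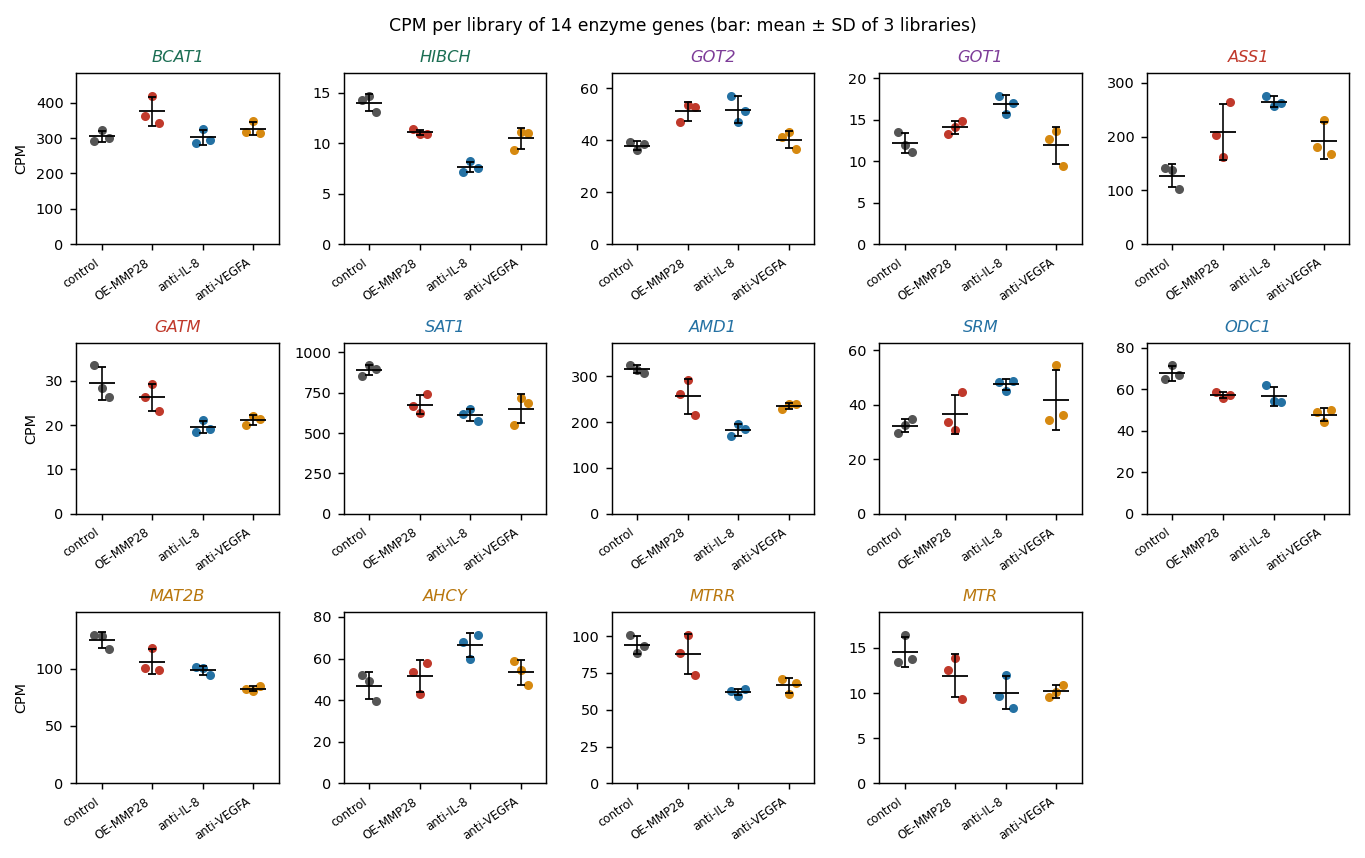
CPM of each library (points, linear axis from 0, titles coloured by branch) with the mean ± SD of 3 libraries for 14 of the genes whose values are given library by library, namely the 13 called in a comparison and BCAT1. Among these 14, control is lowest for ASS1 and highest for SAT1, AMD1, ODC1 and HIBCH; anti-IL-8 is above the other 9 libraries for GOT1 and AHCY and below them for HIBCH and AMD1, and anti-VEGFA is below them for ODC1 and MAT2B.

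By location in the cell, 18 tested genes encode mitochondrial proteins and 22 act elsewhere. In anti-VEGFA against OE-MMP28 the median log2 fold change was -0.20 for the mitochondrial genes, with 5 of 18 above 0, and -0.02 for the others, with 11 of 22 above 0; 4 and 3 genes passed the unadjusted threshold, all lower, where 8.44% of all genes were lower. In OE-MMP28 against control the medians were -0.03 and -0.04. The calls against control in anti-IL-8, where 20.7% of all genes were called, comprised 3 mitochondrial genes (GOT2 higher, GATM and HIBCH lower) and 9 others, and those in anti-VEGFA, where 11.0% were, comprised 1 (GATM) and 6.

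Among the 61 other enzymes of these pathways, 50 were tested. In OE-MMP28 against control 0 were called higher and 2 lower, PPM1K and CKB, a creatine kinase that acts after GATM and GAMT (log2 fold change -1.03 ± 0.20 (SE), adjusted p = 0.00562), or 4.0% of the 50 against 3.16% of all genes. In anti-IL-8 against control 8 were higher: ACAD8 and ECHS1 of valine oxidation, CTH, MPST and ETHE1 of cysteine and sulfide metabolism, GPT2, PYCR1 of proline synthesis, and DOHH, which completes hypusine from spermidine (log2 fold change 0.95 ± 0.23 (SE), adjusted p = 0.011). There 3 were lower, PPM1K, AUH of leucine degradation and GLUD2, so that 22.0% of the 50 were called, against 20.7% of all genes. In anti-VEGFA against control GNMT, a glycine methyltransferase that uses S-adenosylmethionine, was higher (log2 fold change 0.77 ± 0.19 (SE), adjusted p = 0.015) and PPM1K and CKB were lower (log2 fold change -0.68 ± 0.20 (SE), adjusted p = 0.038 for CKB), or 6.0% against 11.0% of all genes. Of these 16 calls, the 3 of PPM1K and that of CKB in OE-MMP28 were kept without any single library, and the other 12 were each lost without control replicate 3 and some without other libraries too (adjusted p = 0.0512 to 0.267 over the fits that lost them). Against OE-MMP28 and between the antibodies, edgeR called 0 of the 50, with 20 past the unadjusted threshold for anti-IL-8 (40%, against 29.3% of all genes), 16 for anti-VEGFA (32%, against 18.8%) and 9 between the antibodies (18%, against 15.0%).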

How the data were processed

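RNA-seq libraries of TAMs (THP-1 cells differentiated with 100 ng/mL PMA for 48 h) were deposited as 1 table of read counts and FPKM per gene. Per the labels, reads were aligned with HISAT2 2.0.5, and the deposited counts were made with featureCounts 1.5.0-p3; the strand setting and genome build are not given in the sources used here, but all 58735 gene IDs are in GENCODE 29 (GRCh38), 58724 with the same start and end. The deposited FPKM values were scaled by the authors by a divisor of 0.939 to 1.08 times the table's library total. The 30 columns of the authors' comparisons (fold changes and p-values) were not used.

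The group of each library came from its sample title, and the cells and antibodies of each group were taken from the published study. The members, the other gene lists, the branches, the markers and the rule for named genes were chosen with earlier results of these data known. By that rule values per library are given for genes called in any comparison, for genes past the unadjusted threshold both in OE-MMP28 against control and in an antibody group against OE-MMP28, and for the most abundant gene of a branch. Counts were analysed in R 4.3.3 with edgeR 4.0.16: filterByExpr with the 4 groups (16046 genes; 40 members), TMM scaling, a quasi-likelihood fit of all 12 libraries (common dispersion 0.0231) and Benjamini-Hochberg adjustment over all genes within each of 6 comparisons. CPM are TMM-scaled, except those of marker sums and of 3 counts, which use library totals. Fold changes use a prior count of 0.125, and the SE is the log2 fold change divided by the square root of the quasi-likelihood F. No 2 libraries of a group agreed within sampling noise (chi-square per degree of freedom 6.43 to 99.2). Alternatives were DESeq2 1.42.0, limma 3.58.1 with voom, log2 FPKM with pseudocounts of 1 and 0.1, library totals, no low-count filter, a minimum of 10 counts per library, a replicate block, fits of 2 groups, an unadjusted threshold and each library left out. The scripts were tested on simulated data. Promoter windows and motifs came from RefSeq. Protein sequences of paralogs were not analysed here. A further enzyme of the same pathways, outside the members, is not reported here. Tables were joined with pandas 2.3.3, and figures were made with matplotlib 3.10.9 (Python 3.11.15).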

Additional observations from a re-analysis of the deposited data

How the results depend on the processing

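Of the 20 gene-by-comparison calls among the 40 tested genes, all kept their direction and their side of the threshold under DESeq2, voom, at least 10 counts in every library and the replicate block; 4 lost their call with FPKM at a pseudocount of 1 and 5 at 0.1, 4 with library totals, 2 without the filter and 1 with fits of 2 groups, and none reversed. Without single libraries 5 calls were kept in all 12 fits: AMD1, ASS1, HIBCH and MTRR in anti-IL-8 against control and MAT2B in anti-VEGFA against control. For OE-MMP28 against control the count of called members, 1, became 3 in DESeq2, 0 with FPKM at either pseudocount, 9 unadjusted, and 0 to 1 without single libraries. For anti-IL-8 against OE-MMP28 the count, 0, became 4 in DESeq2 (where 18.2% of genes with an adjusted p were called), 3 without the filter, 3 with the replicate block (AMD1, HIBCH and MTRR), 10 unadjusted, and 0 to 12 without single libraries. For anti-VEGFA against OE-MMP28, 0 became 7 unadjusted and 0 to 2 without single libraries. For anti-IL-8 against control, 12 became 18 with fits of 2 groups, 18 unadjusted, 14 with the replicate block and 9 with library totals. It became 13 in DESeq2 and in voom, 11 with FPKM at either pseudocount, 11 without the filter, and 4 to 16 without single libraries. For anti-VEGFA against control, 7 became 5 with FPKM at a pseudocount of 1 and 4 at 0.1. It became 6 with library totals, 13 unadjusted, and 2 to 9 without single libraries. Between the antibodies, 0 became 9 unadjusted and stayed at 0 without any single library. Shares of all genes called are given above for the main fit, the unadjusted threshold, DESeq2 in part and some fits without 1 library. For the other settings they are not given here, so those counts describe the settings and are not a result about these enzymes. The cause of these shifts was not tested. A fit that leaves a library out also rests on fewer libraries, and the part of this in the shifts was not tested either. The sample titles do not say whether same-numbered libraries belong together. The deviations of such libraries from the group means correlated at r = -0.185 to 0.322 over 18 pairs, 5 of them over 0.1. In 15 of 36 cases a library matched its own number best in another group. These values do not settle whether the libraries are paired, and the main fit treats them as unpaired. The depth limits the 5 untested members and the glycine branch, where 3 counts equal 0.160 to 0.189 CPM. That limit covers counting error only, while the SE and p-values also hold the spread between libraries.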
